A study of Mus musculus with 10 samples.

Results

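Cells can make acetyl-CoA from acetate, citrate, ketone bodies, and acetylcarnitine as well as from pyruvate, and 7 genes of these routes were measured in granulocyte-macrophage progenitors (GMPs) that had recently lost *Mpc2*. They are *Acss1* and *Acss2* (acetate), *Acly* (citrate), *Bdh1*, *Oxct1*, and *Acat1* (ketone bodies), and *Crat* (acetylcarnitine). The 7 genes were chosen by enzymatic function from the 51717 genes to which the deposited transcripts were summed, and all 7 were among the 12381 genes with enough reads to test. GMPs are bone marrow progenitors of neutrophils and monocytes. CD45.2+ GMPs were sorted after CD27+ enrichment from irradiated mice that had been reconstituted with donor marrow, at the end of 2 wk of tamoxifen chow. The 5 WT samples were *ROSA26 CreER*+/- and the 5 recent *Mpc2* KO samples were *Mpc2*fl/fl; *ROSA26 CreER*+/-, all male, of strain C57Bl6/N, and of an age not given in the sources used here. Both groups thus carried the tamoxifen-inducible Cre, which is expressed in all tissues from the *ROSA26* locus, and both received tamoxifen. The WT group had no floxed allele. A WT sample came from a single mouse, whereas a recent KO sample pooled a pair of mice, so a KO value already averages over animals.

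MPC2 is a subunit of the mitochondrial pyruvate carrier, without which pyruvate does not enter the mitochondria and cannot be turned into acetyl-CoA there by pyruvate dehydrogenase. Of the routes described here, those from acetate and from ketone bodies bypass that step. Acetyl-CoA synthetases join acetate to coenzyme A, ACSS1 in mitochondria and ACSS2 in the cytosol and nucleus. ATP citrate lyase (ACLY) splits exported citrate into acetyl-CoA and oxaloacetate for fatty acid synthesis, sterol synthesis, and histone acetylation. Ketone bodies are burned in 3 mitochondrial steps. BDH1 oxidizes β-hydroxybutyrate to acetoacetate, OXCT1 (also called SCOT) activates acetoacetate to acetoacetyl-CoA, and ACAT1 cleaves that to acetyl-CoA. CRAT moves acetyl groups between coenzyme A and carnitine. The comparison asks whether transcripts of these enzymes differ in GMPs after 2 wk of tamoxifen chow, given to delete *Mpc2*. Pyruvate entry was not measured in these samples.

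Estimated reads totaled 14033776 to 19745405 per sample. *Mpc2* lay at 60.95 to 117 normalized CPM (counts scaled to the library size after TMM normalization) in the WT samples and at 17.1 to 43.9 in the recent KO samples, without overlap (log2 fold change −1.46, edgeR adjusted p = 0.0156). In 7 alternative analyses its adjusted p rose above 0.05, to between 0.05002 and 0.411, with a log2 fold change of −1.46 to −1.35. *Mpc1*, the partner subunit, measured 366 ± 35.6 CPM in WT and 397 ± 45.7 in KO (SD, n = 5 each; edgeR adjusted p = 0.716). The GMP transcripts *Mpo*, *Elane*, *Prtn3*, and *Ctsg* were abundant in every sample, with the 11 GMP markers summing to 87932 to 123746 CPM in WT and to 52032 to 89959 in KO. Markers of other cells moved with the groups as well. The 8 macrophage markers summed to 16.9 to 32.6 CPM in WT and 36.9 to 62.9 in KO, and *C1qa*, *C1qb*, and *C1qc* passed the test. The 10 erythroid markers summed to 9.20 to 42.9 CPM in WT and 24.8 to 209 in KO, the 10 late neutrophil markers to 207 to 548 and 213 to 943, and the 7 monocyte markers to 314 to 402 and 209 to 327. In the same order of groups, megakaryocyte markers summed to 9.79 to 18.4 and 21.5 to 31.05 CPM, basophil and mast cell markers to 153 to 289 and 201 to 353, dendritic cell markers to 169 to 231 and 143 to 243, T and NK cell markers to 1812 to 2632 and 1639 to 2199, and B cell markers to 65.8 to 76.6 and 55.2 to 71.3. No marker other than the 3 *C1q* genes passed the test. An unadjusted p under 0.05 was nonetheless more frequent than the 10.2% of all genes tested. It held for 6 of 11 GMP, 6 of 10 late neutrophil, 5 of 7 monocyte, 6 of 8 macrophage, and 5 of 7 erythroid markers tested. It also held for 3 of 3 megakaryocyte, 3 of 6 basophil and mast cell, 3 of 5 dendritic cell, 1 of 3 T and NK cell, and 0 of 2 B cell markers. The sums above did not always follow most genes of a list. Of the dendritic cell markers tested, 4 were higher in KO and 1 lower. Of the T and NK cell markers tested, 2 were higher and 1 lower. In sorted bulk cells, fewer cells of a type and less RNA per cell cannot be told apart. The part of these shifts in the values below was not tested.

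None of the 7 genes passed an adjusted p of 0.05 in edgeR's quasi-likelihood test, where 0.331% of all genes tested did (41 of 12381). *Acss2* alone had an unadjusted p under 0.05, so 1 of 7 genes (14.3%) stood against 10.2% of all genes. The samples of the groups overlapped for all 7, against 2.43% of all genes tested without overlap. DESeq2 and limma called none of the 7 either. The log2 fold change was above 0 for 6 genes and below 0 for *Crat*, and above 0 for 6135 of the 12381 genes tested. The median was 0.059 against −0.0018 over all genes tested. The intervals were narrow for the abundant genes. The 95% interval of the difference lay within a 2-fold change in either direction for all 7 genes, within 1.5-fold for 5, and within 1.2-fold for *Acly*, *Oxct1*, and *Acat1*. Only *Acss2* had an interval that left out 0.

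**Figure D1:**
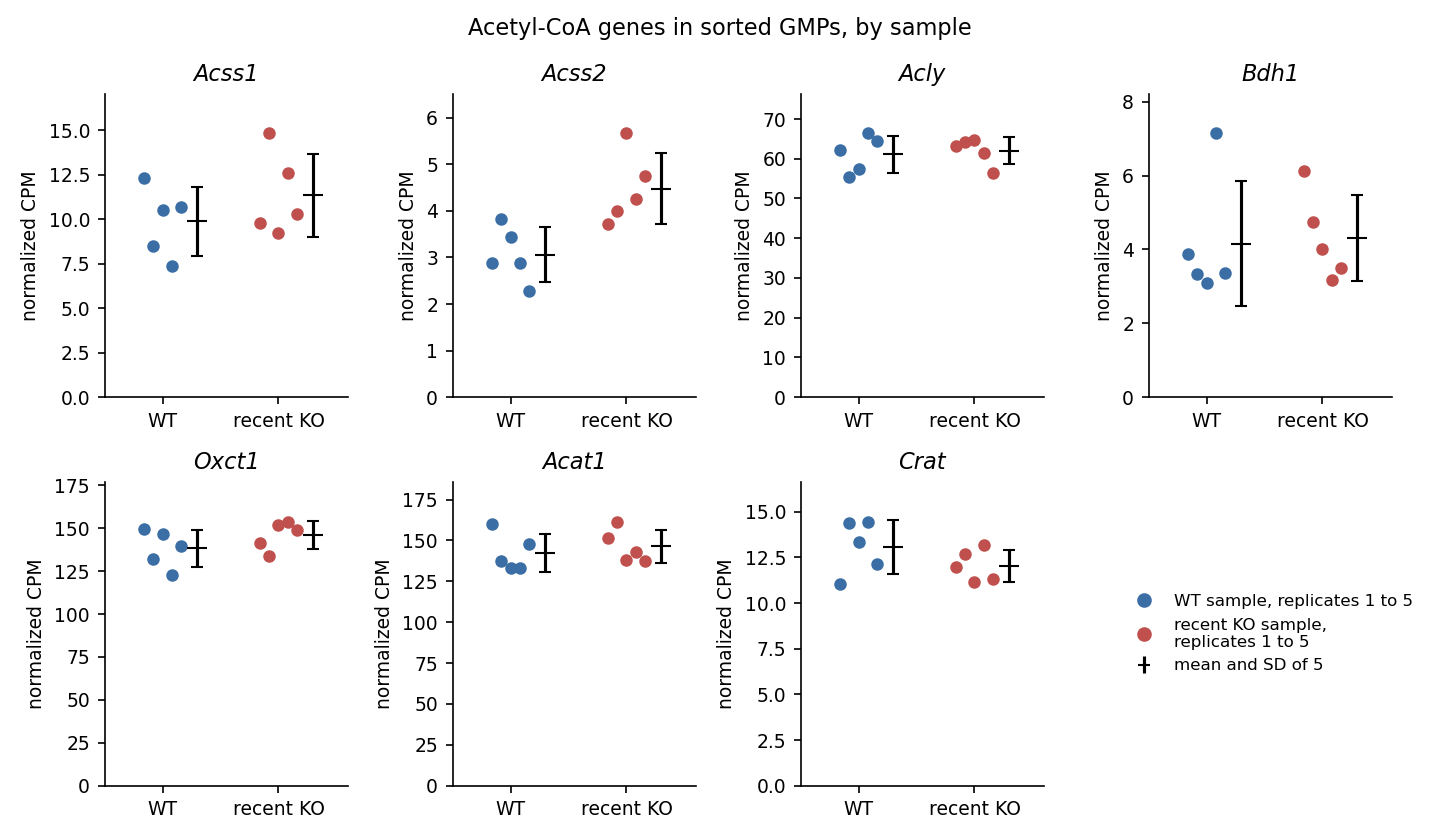
Normalized CPM of the 7 acetyl-CoA genes in each sample (vertical axes start at 0), with WT in blue, recent KO in red, and the mean and SD of 5 samples in black. The *Acss2* points of the groups overlap only through WT replicate 2 and recent KO replicate 1, and *Bdh1* has a single high WT sample at 7.15 CPM.

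*Acss2* (ENSMUSG00000027605; chromosome 2, 155517948 to 155585724 of GRCm38) is the synthetase that recovers acetate outside the mitochondria. Its normalized CPM was 2.89, 3.83, 3.44, 2.88, and 2.27 in WT replicates 1 to 5. In recent KO replicates 1 to 5 it was 3.73, 3.99, 5.67, 4.26, and 4.74. All 5 KO samples lay above the WT mean, 4 of them lay above every WT sample, and the overlap came from WT replicate 2 alone. The means were 3.06 ± 0.595 and 4.48 ± 0.765 CPM (SD, n = 5 each), a 1.47-fold difference with a 95% interval of 1.12 to 1.92. On the log2 scale the difference was 0.55 (SE 0.18), and edgeR gave an unadjusted p of 0.0094 and an adjusted p of 0.298. An exact two-sided permutation test on the means gave p = 0.0159, and 5 against 5 samples cannot give a value below 0.00794. The difference thus did not pass the correction over all genes tested. The gene was covered by 37 to 116 estimated reads per sample, with the lowest mean among the 7, and its adjusted p ranged from 0.216 to 0.811 over 23 alternatives.

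The estimate of *Acss2* was smaller in TPM over all transcripts and with an offset for transcript length. Limma gave 0.21 on log2(TPM + 1) (adjusted p = 0.713), where a pseudocount as large as the level itself shrinks the difference, and 0.38 on log2(TPM + 0.1) (adjusted p = 0.701). With an offset for transcript length edgeR gave 0.30 (adjusted p = 0.794). In these units a few reads carried much weight. WT replicate 2 had 5 reads in *Acss2* transcripts shorter than 1000 bases, which made up 42.7% of its *Acss2* TPM, WT replicates 1 and 3 had 1 read each (12.8% and 22.3% of TPM), and no KO sample had any. When TPM was summed over transcripts of at least 1000 bases only, a choice made after seeing these values, WT samples lay at 0.67 to 1.00 TPM and KO samples at 1.06 to 1.76. The log2 ratio of the mean TPM was then 0.70, and the groups did not overlap. Groups did not overlap for 1.8% of the 8629 genes with a mean of at least 1 TPM measured that way. *Acss2* reached that mean only through the KO samples, with 0.845 TPM in WT and 1.37 in KO. The share therefore lends its difference no support. The adjusted p from limma on that scale was 0.259. *Acss2* shares its locus with *Gss*, a glutathione synthesis gene on the opposite strand. *Gss* measured 25.2 CPM in WT and 26.9 in KO, and whether the counting used strand is not given in the sources used here.

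*Acss1* (ENSMUSG00000027452; chromosome 2, 150618105 to 150668500), the mitochondrial synthetase, was more abundant than *Acss2* in reads and in level per length. Normalized CPM was 12.3, 8.49, 10.5, 7.38, and 10.7 in WT replicates 1 to 5 and 9.77, 14.8, 9.24, 12.6, and 10.3 in the KO samples. The groups were interleaved, with 2 KO samples above every WT sample and 2 WT samples below every KO sample. The means were 9.86 ± 1.93 and 11.3 ± 2.33 CPM (SD, n = 5 each). This came to 0.19 on the log2 scale (SE 0.16, 95% interval −0.15 to 0.54, edgeR adjusted p = 0.757). The sign depended on the unit, as the difference was −0.073 in limma on log2(TPM + 1), −0.098 on log2(TPM + 0.1), and −0.15 in edgeR with the length offset, none of which passed the test. *Acss1-204*, an annotated transcript of 392 bases, held 5 reads in WT replicate 2 and 4 in WT replicate 4 and made up 49.3% and 57.2% of the *Acss1* TPM there. Over transcripts of at least 1000 bases, the log2 ratio of the mean TPM was 0.28, and limma gave 0.20 on log2(TPM + 1), a scale that shrinks differences at levels this low. On that scale *Acss1* was 1.85 to 3.79 times the level of *Acss2* in WT samples and 1.27 to 2.99 times in KO samples.

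*Acly* (ENSMUSG00000020917; chromosome 11, 100476353 to 100528000), the enzyme that makes cytosolic acetyl-CoA from citrate, had the smallest edgeR fold change of the 7 genes. Normalized CPM was 62.2, 55.3, 57.4, 66.5, and 64.4 in WT replicates 1 to 5. In the KO samples it was 63.3, 64.3, 64.6, 61.5, and 56.4, a range that lies inside that of WT. The means were 61.2 ± 4.67 and 62.0 ± 3.37 CPM (SD, n = 5 each). The difference was 0.020 on the log2 scale (SE 0.069, 95% interval −0.13 to 0.17, edgeR adjusted p = 0.954), so a change larger than 1.12-fold upward or beyond 0.915-fold downward lay outside the interval. Its transcript level per length was 9.94 to 13.0 TPM, at least 7.197 times that of *Acss2* in every sample.

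The last steps of ketone oxidation were the most abundant of the set. *Oxct1* (ENSMUSG00000022186; chromosome 15, 4026383 to 4155344) measured 149.6, 132.0, 146.8, 123.0, and 140.0 CPM in WT replicates 1 to 5. In the KO samples *Oxct1* measured 141.6, 134.1, 151.8, 153.9, and 149.0 CPM. The highest 2 values were KO samples and the lowest 2 were WT samples, but the rest were mixed. The means were 138 ± 10.9 and 146 ± 8.14 CPM (SD, n = 5 each), a log2 difference of 0.079 (SE 0.065, 95% interval −0.061 to 0.22, edgeR adjusted p = 0.753). *Acat1* (ENSMUSG00000032047; chromosome 9, 53580522 to 53610382) measured 160.1, 137.5, 133.4, 133.1, and 148.1 CPM in WT and 151.7, 161.5, 137.9, 143.3, and 137.6 CPM in KO. The means were 142 ± 11.6 and 146 ± 10.2 CPM (SD, n = 5 each), a log2 difference of 0.039 (SE 0.068, 95% interval −0.11 to 0.19, edgeR adjusted p = 0.898). Differences of 1.2-fold or more in either gene therefore lay outside the intervals.

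*Bdh1* (ENSMUSG00000046598; chromosome 16, 31422280 to 31458901), the entry enzyme for β-hydroxybutyrate, had the widest interval of the 7 genes on the log2 scale, and 52 to 92 reads per sample. Normalized CPM was 3.87, 3.33, 3.09, 7.15, and 3.35 in WT replicates 1 to 5 and 6.12, 4.76, 4.01, 3.17, and 3.50 in the KO samples. A single sample of each group stood high, WT replicate 4 and KO replicate 1. Recent KO differed from WT by 0.059 on the log2 scale (SE 0.25, 95% interval −0.49 to 0.60, edgeR adjusted p = 0.963). Without WT replicate 4 it was 0.33 (edgeR unadjusted p = 0.139, adjusted p = 0.743), and without KO replicate 1 it was −0.097, so single libraries set its size and sign. Per length, *Oxct1* was 10.7 to 28.6 times *Bdh1* in WT samples and 12.5 to 30.1 times in KO samples, over transcripts of at least 1000 bases. The entry step of ketone oxidation was thus the least abundant of the 3 at the transcript level in all 10 samples.

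*Crat* (ENSMUSG00000026853; chromosome 2, 30400471 to 30415813), the carnitine acetyltransferase, was the only gene of the 7 with a lower mean CPM in KO. Normalized CPM was 11.0, 14.4, 13.4, 14.5, and 12.2 in WT replicates 1 to 5 and 11.95, 12.7, 11.1, 13.2, and 11.3 in the KO samples. All KO values lay between the lowest and the highest WT value. The means were 13.1 ± 1.48 and 12.04 ± 0.865 CPM (SD, n = 5 each), a log2 difference of −0.12 (SE 0.10, 95% interval −0.33 to 0.10, edgeR adjusted p = 0.765). In TPM over all transcripts the mean of *Crat* was 3.64 in WT and 3.73 in KO, and *Acss1* was the gene with the lower KO mean. *Crat* overlaps the end of *Dolpp1* on the opposite strand, which measured 20.1 CPM in both groups.

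**Figure D2:**
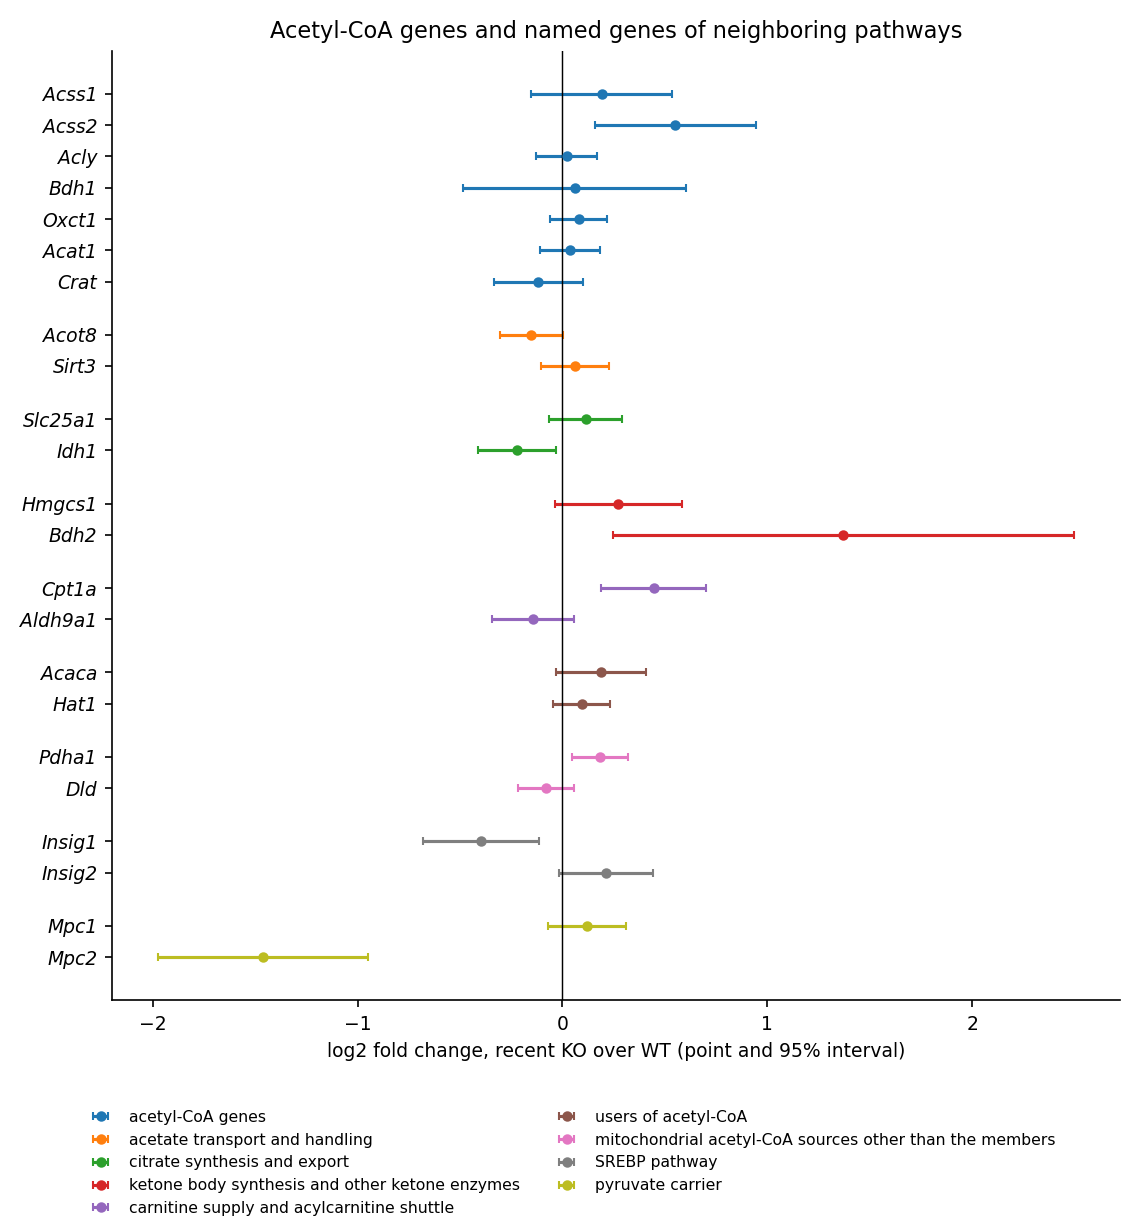
edgeR's log2 fold change between recent KO and WT (horizontal axis, with point and 95% interval) for the 7 acetyl-CoA genes and for the genes named from each neighboring pathway, colored by list. Among the 7, only the interval of *Acss2*, 0.16 to 0.94, leaves out 0, and the interval of *Mpc2* lies farthest to the left, from −1.98 to −0.95.

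The level of each gene was compared per length, in TPM summed over transcripts of at least 1000 bases. In WT samples the means were 39.6 ± 5.69 TPM for *Oxct1*, 34.75 ± 4.87 for *Acat1*, 11.3 ± 1.14 for *Acly*, 2.82 ± 0.233 for *Crat*, 2.22 ± 0.566 for *Acss1*, 1.98 ± 0.756 for *Bdh1*, and 0.845 ± 0.126 for *Acss2* (SD, n = 5 each). In KO samples, in the same order, they were 42.0 ± 5.66, 37.4 ± 2.92, 12.2 ± 0.813, 2.69 ± 0.253, 2.70 ± 0.607, 2.01 ± 0.493, and 1.37 ± 0.285 TPM (SD, n = 5 each). The steps from *Acat1* down to *Acly* and from *Acly* down to *Crat* held in all 10 samples. The other neighbors were not separated beyond their spread. *Oxct1* was above *Acat1* in 8 samples, *Crat* above *Acss1* in 7, *Acss1* above *Bdh1* in 8, and *Bdh1* above *Acss2* in 9. In TPM over all transcripts, *Oxct1* in WT stood at percentile 87.4 of the genes tested and *Acss2* at percentile 20.6. *Acat2*, which encodes the cytosolic thiolase related to ACAT1, was lower per length than *Acat1*, which was 1.21 to 1.61 times its level in WT samples and 1.29 to 1.52 times in KO samples.

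**Figure D3:**
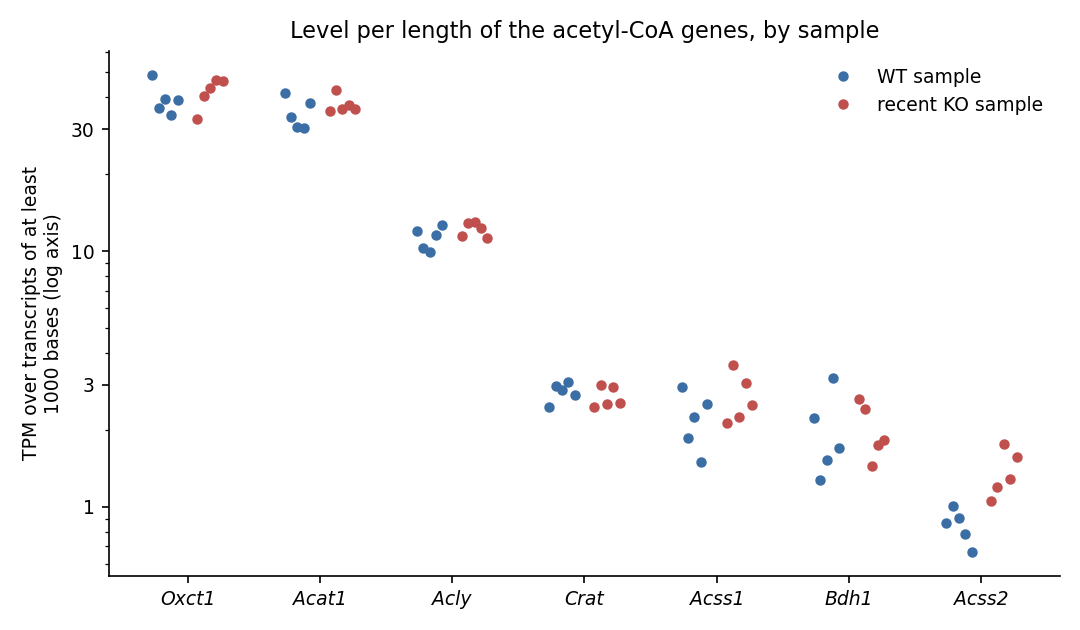
Level per length (TPM over transcripts of at least 1000 bases, log axis) of the 7 genes in each WT sample (blue) and recent KO sample (red), ordered by the WT mean. *Oxct1* and *Acat1* share the top at 30.3 to 49.0 TPM, *Acly* lies between 9.94 and 13.0, and the remaining 4 genes lie at or below 3.58.

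Annotated short transcripts held a larger share of TPM than of reads. Their share of reads reached 15.7% for *Bdh1*, 8.31% for *Oxct1*, and 7.48% for *Crat* in single samples. Of the 50 annotated transcripts of the 7 genes, *Oxct1-202* (480 bases, with no coding sequence annotated) took 3.30% to 8.15% of the *Oxct1* reads and 35.1% to 56.8% of its TPM. *Oxct1* therefore averaged 70.3 TPM over all transcripts in WT, against 39.6 over the long ones. The start of *Oxct1* overlaps *BC037032*, a noncoding gene on the opposite strand that matches it over 468 bases and measured 0.761 CPM in WT and 0.535 in KO. In *Bdh1*, the retained-intron transcript *Bdh1-205* (438 bases) appeared in WT replicate 4 and in KO replicates 1, 3, and 5, with 4 to 7 reads each. In *Crat*, short transcripts held 0 to 13.5 reads per sample and 0% to 46.9% of TPM. *Acat1* was carried almost entirely by *Acat1-201*, with at least 99.9% of reads in every sample. *Acly* reads were split among *Acly-203*, *Acly-207*, and *Acly-201*, and 6 samples had no reads at all in *Acly-207* or in *Acly-201*. Whether transcripts took different shares of reads in the groups was tested where reads allowed. Of 9 transcripts of *Acly*, *Bdh1*, and *Oxct1* with enough reads, 0 passed edgeR's test of transcript usage at an adjusted p of 0.05 and 0 had an unadjusted p under 0.05. Of the 20752 transcripts tested, 0.053% passed.

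**Figure D4:**
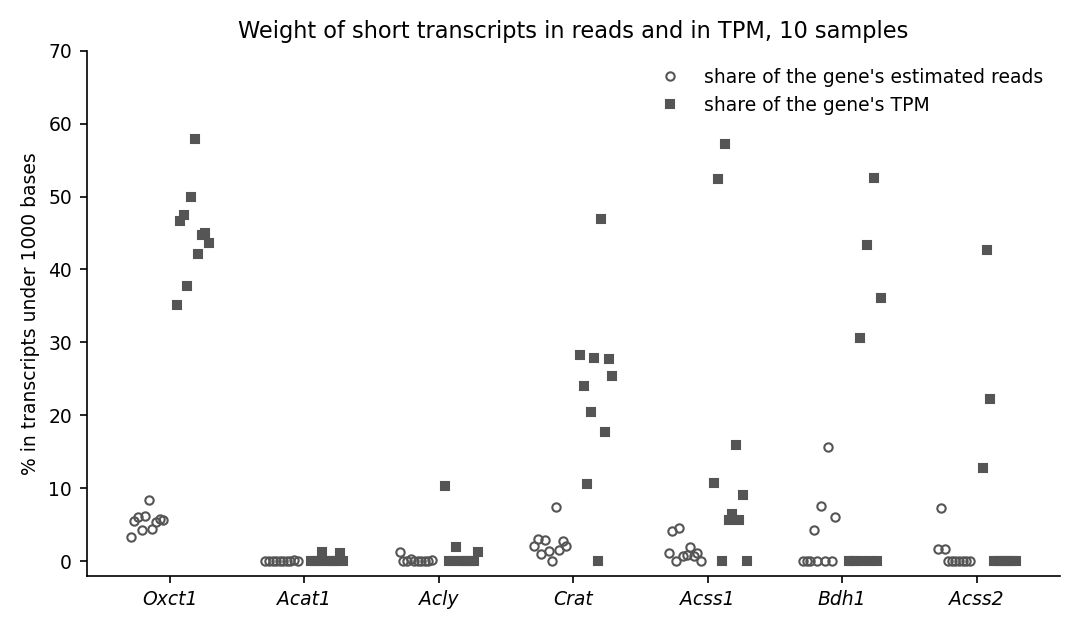
Share of each gene's estimated reads (open circles) and of its TPM (filled squares) in transcripts under 1000 bases, in percent, for the 10 samples. *Oxct1* has 3.30% to 8.31% of reads but 35.1% to 57.9% of TPM in such transcripts, and *Acss1*, *Bdh1*, *Crat*, and *Acss2* reach over 40% of TPM in single samples.

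Genes around the 7 enzymes were read from lists of transport, synthesis, and use. Of 67 genes listed, 53 had enough reads to test, and 0 passed an adjusted p of 0.05 in edgeR. At an unadjusted p under 0.05 there were 5, or 9.43%, against 10.2% of all genes. DESeq2 called 1 of the 54 listed genes to which it gave an adjusted p, *Cpt1a*, at an adjusted p of 0.0401. Over all genes it called 156 of 14360. Limma called 0 of the listed genes.

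Acetate reaches cells through monocarboxylate transporters and is released inside them by thioesterases. The list of these genes also holds the deacetylases *Sirt1* and *Sirt3*. Of 9 genes of this list, 6 were tested, 2 higher and 4 lower in KO, with a median log2 difference of −0.016. *Acot8*, a peroxisomal thioesterase, measured 32.8 ± 1.29 CPM in WT and 29.6 ± 2.42 in KO (SD, n = 5 each; edgeR adjusted p = 0.496). *Sirt3*, which deacetylates mitochondrial proteins, differed by 0.063 on the log2 scale (edgeR adjusted p = 0.849). The mitochondrial synthetase of the same family, *Acss3*, reached at most 9 reads in a sample and was not tested.

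Citrate for ACLY comes from the mitochondria through the carrier SLC25A1. *Slc25a1* measured 91.9 ± 6.15 and 99.5 ± 12.3 CPM (SD, n = 5 each), a log2 fold change of 0.11 (edgeR adjusted p = 0.708). *Idh1*, the cytosolic isocitrate dehydrogenase, was at 190, 194, 168, 204, and 165 CPM in WT and at 142, 135, 157, 178, and 179 CPM in KO. Every KO sample lay below the WT mean, with a log2 fold change of −0.22 (SE 0.089, unadjusted p = 0.0272, adjusted p = 0.416 in edgeR). Of 8 genes listed, 6 were tested, 4 higher and 2 lower.

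Among other enzymes of ketone metabolism, *Oxct2a* and *Oxct2b*, close relatives of *Oxct1*, had no reads in any sample. *Hmgcs1*, the cytosolic enzyme of sterol synthesis, differed by a log2 fold change of 0.27 (edgeR adjusted p = 0.545). *Bdh2*, a cytosolic dehydrogenase named after its likeness to BDH1, was at 0.20, 0.67, 0.89, 0.08, and 0.42 CPM in WT and at 1.41, 1.89, 0.83, 1.52, and 0.41 CPM in KO. This was a log2 fold change of 1.37 (SE 0.52, unadjusted p = 0.0206, adjusted p = 0.387 in edgeR), from 1 to 27 reads per sample. All 5 tested genes of this list were higher in KO, against 6135 of the 12381 genes tested. The median log2 difference of the list was 0.085, and none passed the test.

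Carnitine carries acyl groups across the mitochondrial membrane. *Cpt1a*, which starts the entry of long-chain fatty acids, had the smallest unadjusted p of all the listed genes. It measured 22.7, 22.5, 27.4, 27.05, and 20.4 CPM in WT and 23.8, 33.5, 33.7, 37.6, and 34.5 CPM in KO. All KO samples but replicate 1 were above every WT sample. The log2 fold change was 0.45 (SE 0.12, unadjusted p = 0.0023, adjusted p = 0.189 in edgeR). It passed the threshold in DESeq2, in edgeR without a low-count filter (adjusted p = 0.0294), and in edgeR without KO replicate 1 (0.0356). Those edgeR fits called 206 of 27909 and 35 of 12696 genes. *Aldh9a1*, of carnitine synthesis, was lower by 0.14 on the log2 scale and had an adjusted p of 0.650 in edgeR. Of the 8 tested genes of this list, 5 were higher and 3 lower.

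Among users of acetyl-CoA, 10 of 11 tested genes had a higher mean in KO, with a median log2 difference of 0.077. Over all genes tested, 6135 of 12381 were higher. The differences of the list ran from −0.015 to 0.19, and none had an unadjusted p under 0.05. *Acaca*, the rate-limiting carboxylase of fatty acid synthesis, had a log2 fold change of 0.19 (edgeR adjusted p = 0.554), and the histone acetyltransferase *Hat1* had 0.094 (edgeR adjusted p = 0.679). Among other mitochondrial sources, *Pdha1*, a subunit of pyruvate dehydrogenase, was the only gene of the 53 tested whose groups did not overlap, against 2.43% of all genes tested. It measured 93.3 to 101.3 CPM in WT and 103 to 127 in KO, a log2 fold change of 0.18 (SE 0.064, unadjusted p = 0.0132, adjusted p = 0.330 in edgeR). *Dld*, its dihydrolipoamide dehydrogenase partner, had a log2 fold change of −0.082 (edgeR adjusted p = 0.733). In this list 5 genes were higher and 4 lower.

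SREBP factors drive genes of lipid synthesis, among which *Acly* and *Acss2* are well known targets. Of the 8 genes of the SREBP list, 4 were higher and 4 lower, with a median log2 difference of −0.012. *Insig1*, which holds SREBP back and is itself a target, measured 12.3, 10.4, 10.4, 11.3, and 12.1 CPM in WT and 9.91, 10.5, 8.75, 7.06, and 6.86 CPM in KO. KO and WT differed by a log2 fold change of −0.40 (SE 0.13, unadjusted p = 0.0094, adjusted p = 0.298 in edgeR). The part of SREBP in the difference of *Acss2* was not tested. *Insig2* had a log2 fold change of 0.21 (edgeR adjusted p = 0.525).

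**Figure D5:**
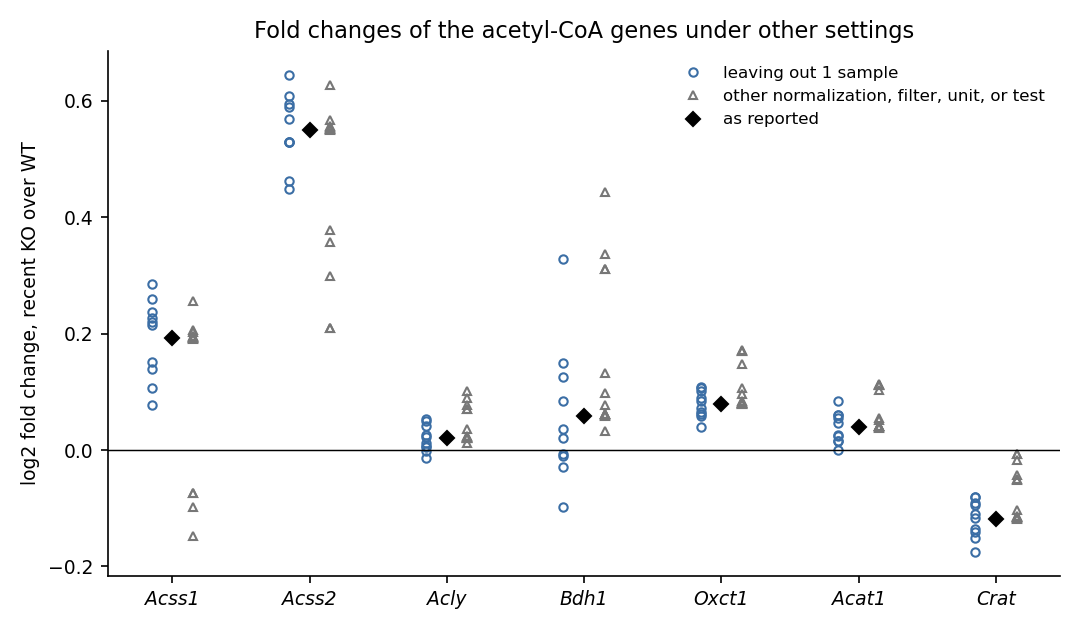
Log2 difference between recent KO and WT (vertical axis) for the 7 genes as reported (black diamonds), after leaving out each sample in turn (blue circles), and under other normalizations, filters, units, and tests (gray triangles). *Acss2* stays above 0, between 0.21 and 0.65, *Crat* stays below 0, and *Acss1*, *Acly*, and *Bdh1* cross 0.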

How the data were processed

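The authors quantified transcripts of Gencode's M27 annotation with Salmon 1.5.1 (version per the labels) from paired-end libraries made with the SMARTseq V4 kit. For each sample they deposited estimated counts per transcript and TPM (abundance per transcript length, with the same total in each sample). No filter on reads is stated. The authors' own table of a DESeq2 comparison, which holds fold changes and p-values, was not used.

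Transcripts were matched to GENCODE M21 (GRCm38) by Ensembl identifier without version. This kept 97.4% of transcripts, left out 0.348% to 0.390% of estimated reads per sample, and may misplace transcripts that changed between annotations. Positions are from M21. Estimated counts were summed per gene and rounded. edgeR 4.0.16 (R 4.3.3) was run on all 12381 genes with a filterByExpr minimum count of 10, TMM scaling, and Benjamini-Hochberg adjustment, with genotype as the only term. Alternatives used DESeq2 1.42.0, and limma 3.58.1 on log-transformed TPM with a pseudocount of 1 or 0.1, where a gene's mean TPM had to reach 1. Intervals are at 95% from the edgeR fit. Exact permutation tests enumerated all 252 assignments of the 10 samples. The edgeR, DESeq2, limma, and transcript usage fits were tested on simulated counts, with limma run on CPM made from them.

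The 7 genes, the pathway lists, and the marker lists were chosen with earlier results of these data known. Of each pathway list, the 2 genes with the smallest unadjusted p and any gene that passed the test were named, as were, for each of the 7, the 2 genes most like it across samples. Labels call the samples biological replicates. Within a sample, 3 counts equaled 0.147 to 0.233 CPM, and such limits cover counting error only, since amplified cDNA without molecular identifiers does not count molecules. Transcripts of the 7 genes were compared with all M21 transcripts by BLAST 2.17.0 (at least 90% identity over 300 bases). *Oxct1* alone had such a match, in *BC037032*. *Tmlhe* was listed but is not analysed here, and some other genes that these rules select are not reported here.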

Additional observations from a re-analysis of the deposited data

Results flagged for a closer look

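In 46 groups of 5 samples, the highest or the lowest sample was tested for its distance from the rest (Dixon's critical value of 0.71). 2 groups stood out, where chance alone gives about 2.3. *Bdh1* in WT replicate 4 measured 7.15 normalized CPM, and the other WT samples measured 3.09 to 3.87. The gap took up 0.808 of the range of the group. *Pdha1* in WT replicate 3 measured 93.3 normalized CPM, below the 99.2 to 101.3 of the other WT samples, and its gap took up 0.735 of the range.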

How the results depend on the processing

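No acetyl-CoA gene passed an adjusted p of 0.05 in any of 23 alternatives. Of 161 fold changes of these genes under the alternatives, 151 kept their sign and 10 reversed it. *Acss1* reversed to −0.15 with the length offset, to −0.073 in limma on log2(TPM + 1) with and without the filter on low TPM, and to −0.098 on log2(TPM + 0.1). The reversals of *Acly* and *Bdh1* came from leaving out single samples, which gave −0.014 to 0.053 and −0.097 to 0.33. The deletion itself lost its call with an adjusted p above 0.05 and a log2 fold change of −1.46 with robust dispersions, −1.40 with the length offset, −1.35 in limma on log2(TPM + 1) with and without the filter, and −1.38 on log2(TPM + 0.1). Without recent KO replicate 1 the adjusted p was 0.05002, and leaving out samples gave −1.60 to −1.31. The count of genes called was 41 as reported (15 higher, 26 lower) and 46 without TMM scaling (26 higher, 20 lower). It was 206 without a low-count filter, 156 in DESeq2, 25 and 24 in limma with pseudocounts of 1 and 0.1, and 13 in limma without the filter. Leaving out samples gave 25 to 91, with 91 when recent KO replicate 2 was dropped, 26 for WT replicate 3, and 25 for recent KO replicate 3 or 4. Transcripts called for usage numbered 11 as reported, 3 at a mean count of at least 50, and 11 to 38 when samples were left out, with 38 without recent KO replicate 2. The causes were not tested.

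The replicate numbers shared by the groups did not pair the samples, since correlations of same-numbered samples were −0.23 to 0.03 and no sample correlated best with its own number. With the replicate number as a block, the counts fell to 20 genes and 4 transcripts, and *Mpc2* had a log2 fold change of −1.46 (edgeR adjusted p = 0.0577). Mean TPM over transcripts of at least 1000 bases, an alternative chosen after seeing the data, was 2.22 for *Acss1*, 39.6 for *Oxct1*, and 2.82 for *Crat* in WT, against 3.13, 70.3, and 3.64 over all transcripts. *Acss2* and *Bdh1* rested on the fewest reads, at means of 64.9 and 69.6 per sample, and the part of depth in their intervals was not tested.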

Other observations

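For each of the 7 genes, the genes whose log2 normalized CPM followed it most closely were sought among the 9738 genes that averaged 50 reads or more, over all 10 samples. The samples share depth and cell composition, so these correlations are descriptions and carry no test. *Nt5c3b* was among the 2 genes nearest to *Bdh1* (Pearson r = 0.91, Spearman rho = 0.77), and *Myct1* among the 2 nearest to *Oxct1* (r = 0.95, rho = 0.94). *Blvra*, which reduces biliverdin to bilirubin, was nearest to *Acat1* (r = 0.96, rho = 0.87), followed by *Tpst1* (r = 0.94). *Micu2* and *Orai3*, of mitochondrial and store-operated calcium uptake, were nearest to *Acss1* (r = 0.92 each). *Eri1* and *Mul1* were nearest to *Acly* (r = 0.91 and 0.90), *D10Wsu102e* and *Specc1l* to *Acss2* (r = 0.91 and 0.90), and *Gm48161* and *Preb* to *Crat* (r = 0.90 and 0.89). None of the genes named here passed the test between the groups, with edgeR adjusted p-values from 0.166 to 0.966.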
